A study of Mus musculus with 24 samples.

Results

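Psca, Lcn2, Clu, Ly6a, Prom1, Wfdc2, Ltf and Ppp1r1b are 8 genes used as markers of luminal progenitors and of the proximal luminal cells of the mouse prostate. They were taken by name, and all 8 were found among the 35519 genes with at least 1 transcript in the deposited files. Prostate tissue and prostate organoids, which are small epithelial structures grown from single cells in a gel, had been sequenced for RNA in 24 libraries. The 18 organoid libraries fell into 6 groups of 3, and the 6 tissue libraries into 3 groups of 2. The genotype labels were wild type (WT), Brca1+/- (HET) and Brca1-/- (KO), where Brca1 is a gene of homologous recombination repair. Organoids came from the anterior lobes of mice aged 3 months, dissociated with collagenase and embedded in Matrigel. Their medium held EGF, Noggin, R-Spondin, A83-01, Y27632, B27 and N-acetylcysteine, and each genotype was grown with and without dihydrotestosterone (DHT), a potent androgen. Tissue RNA was taken directly from anterior lobes. Whether the Brca1 alleles were constitutive or conditional, any Cre driver, the age of the mice behind the tissue libraries and the time without DHT were not given in the sources used here. The series calls the samples biological replicates without tying them to separate animals or cultures, so a p-value here reflects the spread between these libraries alone, which may be technical.

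The luminal epithelium of each mouse prostate lobe runs from a proximal part next to the urethra to distal, secreting tips. Proximal luminal cells carry surface proteins such as Psca and Ly6a (Sca-1), make little of the androgen-dependent secretions of the distal cells, and are enriched in cells that form organoids. Several of their genes, Lcn2 and Ltf among them, encode antimicrobial proteins that bind iron or its carriers. Clu encodes clusterin, an extracellular chaperone that is a classical example of a prostate transcript that accumulates after castration.

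Library sizes were 11965815 to 58445041 estimated reads. The WT organoid library 1 with DHT had the fewest, and 28.1% of its reads were assigned to Lars2, against 0.954% or less elsewhere. HET and KO organoid libraries 1 without DHT held 9.43% and 10.01% mitochondrial reads, where the other organoid libraries held 2.16% to 5.06%. Fkbp5, an androgen-induced co-chaperone that checks the DHT labels, changed by -1.83, -1.42 and -1.45 on the log2 scale without DHT in WT, HET and KO organoids, each called by edgeR's quasi-likelihood test. In organoids the labels and the RNA of Brca1 itself were out of step. With DHT Brca1 was 13.2 to 14.3 counts-per-million (CPM) in WT, 14.7 to 18.04 CPM in HET and 9.64 to 11.8 CPM in KO libraries, and which part of the gene was deleted is not given. HET and KO below therefore mean libraries that carry those labels.

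In organoids with DHT the 8 genes spanned a wide range of transcripts-per-million (TPM), a level corrected for transcript length. Median TPM over the 9 libraries was 2021 for Ly6a, 1353 for Lcn2, 1038 for Ltf, 903 for Wfdc2, 740.2 for Clu, 474 for Psca, 98.7 for Prom1 and 35.2 for Ppp1r1b. Every gene was detected in every library, with at least 210 reads per organoid library, the lowest being Ppp1r1b in the small WT library. Other proximal genes were present too: the list of 14 that includes the keratins Krt4, Krt7 and Krt19 summed to 6869 to 7648 CPM across the organoid groups. Basal genes (Krt5, Krt14, Trp63 and 7 others) summed to 4582 to 7804 CPM. None of the 14 proximal or 10 basal genes was at 0 in any organoid library, while up to 4 of 14 distal and secretory genes were at 0 in a library. Proximal and basal transcripts were thus both abundant. In such bulk RNA, fewer cells of a type and less RNA per cell cannot be told apart.

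Among tissue libraries, WT 2 stood apart. It lay below all 5 other tissue libraries for 6 of the 8 markers, all but Lcn2 and Prom1. The share of all genes for which this held was not computed, so this count has no background. Wfdc2 was 0.891 CPM in WT 2, from 21 reads, against 451 to 1014 CPM elsewhere. Psca was 17.7 CPM against 423 to 924 CPM, and Ly6a was 159.97 CPM against 1486 to 2164 CPM. These 3 genes were therefore far lower in WT 2 than in WT 1. The same held for other proximal genes: of the 12 with a median of at least 5 CPM over the other libraries, 9 were below all of them in WT 2. Krt4 was 3.39 CPM against 346 to 661 CPM, and Pigr, the receptor that carries immunoglobulin A into secretions, was 64.9 CPM against 7712 to 11318 CPM. Transcripts of seminal vesicle secretion made up 18.2% of the CPM of WT 2 and 4.24% of HET 1, and at most 0.00137% of each of the other 4. The low values were not particular to proximal genes: WT 2 was also below all the others for 8 of 9 basal, 12 of 12 interferon response and 7 of 11 acute phase genes. Of 14 distal and secretory genes, 5 were below all the others and 3 above. Among the first were Spink5 (2.16 CPM against 100.5 to 798 CPM) and Sbp (8.74 CPM against 147 to 303 CPM), and among the second were Tgm4 (38884 CPM against 1.38 to 2928 CPM) and Pbsn (13316 CPM against 29.5 to 4323 CPM). WT 2 was above all the others for 7 of 8 stromal markers. HET 1, with its smaller share of seminal vesicle transcripts, was the highest of the 6 for Wfdc2, Ltf, Lcn2 and Prom1, and for Clu and Ly6a it was lower than all but WT 2. What set WT 2 apart was not tested. The tissue tests of the markers are therefore given with and without it.

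**Figure D1:**
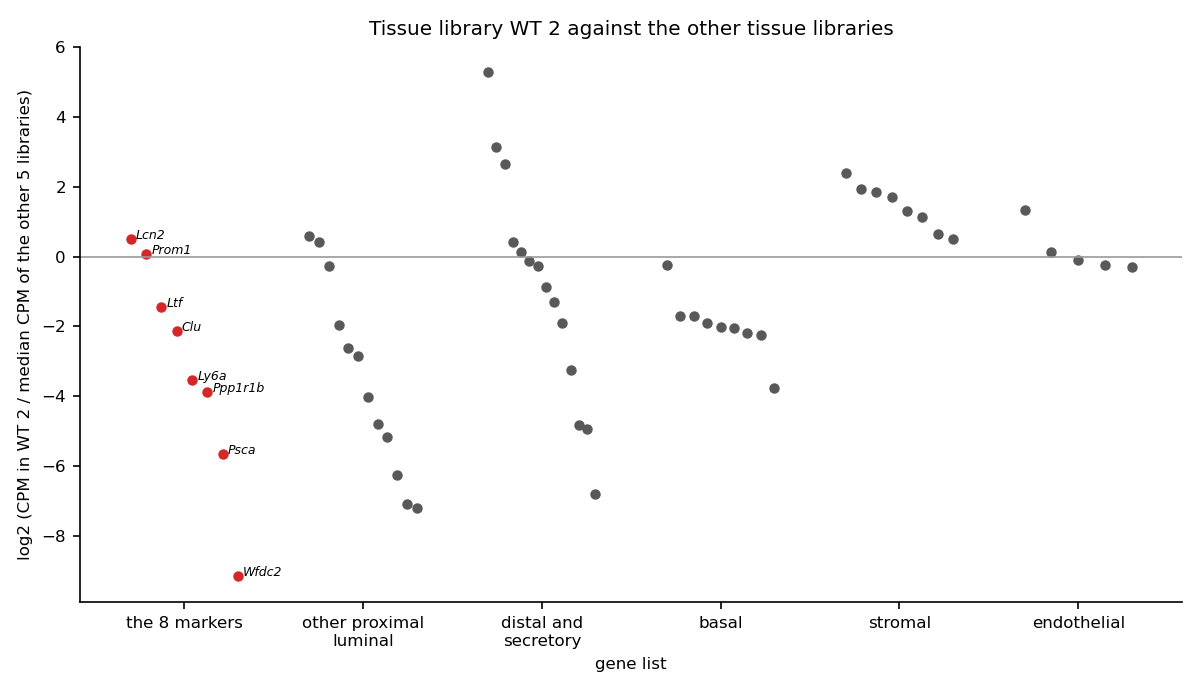
Log2 ratio of the CPM in tissue library WT 2 to the median CPM of the other 5 tissue libraries (vertical axis), 1 point per gene, grouped by gene list along the horizontal axis, with genes of the 8-marker list named. Wfdc2 lies lowest, Lcn2 and Prom1 lie at or just above 0, and all 8 stromal genes lie above 0.

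DHT withdrawal asks which of these genes depend on androgen in culture. Without DHT, WT organoids had less Psca and Lcn2 and more Clu, while Prom1, Wfdc2 and Ppp1r1b were close to their levels with DHT. Psca, Lcn2 and Clu, 3 of the 8 genes, passed edgeR's quasi-likelihood test at a Benjamini-Hochberg adjusted p under 0.05 over 15427 genes. That threshold was used throughout for a called gene. Of all genes tested in WT organoids, 1.3% were called. The median log2 change of the 8 genes was -0.28, against 0.01 over all genes tested. In HET and KO organoids none of the 8 was called, where 0.707% and 0.557% of all genes were. There, 3 of the 8 genes in HET and 4 in KO had an unadjusted p under 0.05, and DESeq2 called Psca and Lcn2 in each. The share of all genes at that unadjusted p is not given here. DESeq2 also called more of all genes than edgeR in both, as counted in the last section.

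Psca encodes a small surface protein anchored by a lipid, of the Ly6 family, first described as prostate stem cell antigen. With DHT its level in WT libraries 1, 2 and 3 was 199, 286 and 289 CPM, and without DHT 116, 111 and 93.9 CPM. The groups did not overlap, and the lowest value with DHT came from the small library. The log2 change was -1.27 (SE 0.136, edgeR adjusted p = 0.000117). In HET organoids Psca was 268, 311 and 264 CPM with DHT and 224, 184 and 187 CPM without, which gave -0.50 (SE 0.134, adjusted p = 0.148). In KO organoids it was 174, 194 and 192 CPM with DHT and 129, 128 and 136 CPM without, which gave -0.51 (SE 0.135, adjusted p = 0.153). Each of these groups also separated from its partner, but neither change was called. Averaged over the 3 genotype labels, Psca fell by 0.76 (SE 0.0779, adjusted p = 1.56e-05), as 1 of 4 markers called in a comparison that called 4.96% of all genes.

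The log2 change of Psca in HET minus that in WT organoids was 0.77 (SE 0.19), and in KO minus WT 0.76 (SE 0.19). Their unadjusted p-values were 0.00104 and 0.00113, but edgeR's test of the difference called no gene of 15427 (0% of all genes, Psca's adjusted p = 1 in both), and DESeq2 called none of the 8 either. For Clu these differences were -0.42 (SE 0.172) and -0.41 (SE 0.172), with unadjusted p-values of 0.0283 and 0.0314. No other marker had an unadjusted p under 0.05 for a difference between withdrawal responses. A difference in androgen response between genotype labels was thus not shown for any of the 8.

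Lcn2 encodes lipocalin 2, a secreted protein that binds bacterial iron carriers. Its level in WT organoids was 543, 539.6 and 545 CPM with DHT and 349, 323 and 308 CPM without. The libraries with DHT lay within a few CPM of each other and above all libraries without. The log2 change was -0.73 (SE 0.133, edgeR adjusted p = 0.00838), and it ranged from -0.80 to -0.70 when each library was left out in turn. The call was lost without WT library 2 without DHT, at an adjusted p of 0.0506, the highest of these fits. In HET organoids Lcn2 was 773, 820.5 and 738 CPM with DHT and 444, 568 and 649 CPM without. In KO organoids it was 846, 861 and 887 CPM with DHT and 515, 678 and 719 CPM without. Both pairs of groups were separate, with log2 changes of -0.49 (SE 0.132) and -0.44 (SE 0.132) and adjusted p-values of 0.152 and 0.245. On average over genotype labels Lcn2 fell by 0.55 (SE 0.0765, adjusted p = 0.000315).

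Ltf encodes lactoferrin, a secreted iron-binding protein. In WT organoids it was 999, 1049.7 and 1080.3 CPM with DHT and 874, 792 and 747 CPM without, so the groups were separate, at a log2 change of -0.37 (SE 0.142, edgeR adjusted p = 0.377). In HET organoids the values were 1193, 1334 and 1297 CPM with DHT and 876, 1083 and 1248 CPM without. In KO organoids they were 1159, 1320.4 and 1357 CPM with DHT and 828, 1113 and 1201 CPM without. The HET and the KO groups overlapped between media. Averaged over genotype labels Ltf fell by 0.31 (SE 0.0817, adjusted p = 0.0414). That call was lost in 12 of 18 fits that left out 1 library (adjusted p 0.0177 to 0.0942) and without the low-count filter. In HET and in KO organoids without DHT, the library with the most mitochondrial reads had the lowest Lcn2 and Ltf. With the mitochondrial share as a covariate, the log2 change of Lcn2 on withdrawal was -0.35 in HET (adjusted p = 0.00309, against 0.00309 to 0.77 over all alternatives) and -0.34 in KO (0.00278, against 0.00278 to 0.78). That fit called Ltf on withdrawal in WT, at -0.29 (edgeR adjusted p = 0.0252, against 0.0252 to 0.781 over all alternatives). Neutrophils, which store both proteins, were checked by 10 markers: Ngp, Camp, Elane and Retnlg were at 0 in all 18 organoid libraries, 8 of 10 were under 1 CPM in all, and the highest single value was 5.77 CPM (Cxcr2). Their summed level was 3.45 to 5.18 CPM in WT organoids with DHT and 3.09 to 3.21 CPM without, and 2.90 to 6.57 CPM across the HET and KO groups.

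The 250 bases before the RefSeq start site (GRCm38.p6) are shown for Lcn2 and Ltf, the pair of markers that encode iron-related defence proteins. Capitals mark matches to the motifs searched on both strands.
Lcn2: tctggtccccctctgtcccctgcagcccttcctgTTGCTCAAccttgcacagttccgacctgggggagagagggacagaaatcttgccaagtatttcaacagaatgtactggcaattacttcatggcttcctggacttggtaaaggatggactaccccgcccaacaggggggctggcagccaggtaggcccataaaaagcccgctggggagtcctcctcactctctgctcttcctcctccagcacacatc
Ltf: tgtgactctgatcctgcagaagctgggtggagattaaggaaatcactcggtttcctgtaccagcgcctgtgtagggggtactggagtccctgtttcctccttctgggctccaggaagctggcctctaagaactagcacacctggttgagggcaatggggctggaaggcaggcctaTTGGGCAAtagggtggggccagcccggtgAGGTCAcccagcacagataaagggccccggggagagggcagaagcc
The Lcn2 window lies on the minus strand at chr2:32387740-32387989 and the Ltf window on the plus strand at chr9:111019042-111019291. Each holds 1 match to the C/EBP consensus TTGCNNAA, TTGCTCAA beginning 216 bases before the Lcn2 start and TTGGGCAA beginning 75 bases before the Ltf start, and 9.56% of 32851 such windows of the genome hold a match. Ltf also holds the estrogen response half-site AGGTCA beginning 46 bases before its start, which 14% of windows hold. The androgen response half-site AGAACA (16.1% of windows), its full form, AGAACA and TGTTCT 3 bases apart (0.00913% of windows), and the NF-kB consensus (7.25% of windows) had no match in either window. Windows were found for Lcn2, Ltf, Prom1 and Wfdc2. Of the 2 starts of Prom1, 1 had TGTTCT, the reverse complement of AGAACA, beginning 21 bases before it. The 2 starts of Wfdc2 lie at neighbouring bases. The window of 1 ended with AGGTCA, beginning 6 bases before the start, and the other window stopped 1 base short of that match.

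Clu was the only one of the 8 called as higher on withdrawal. In WT organoids it was 388, 389.7 and 417 CPM with DHT and 713, 639 and 564 CPM without, and the groups were far apart. Its log2 change was 0.68 (SE 0.122, edgeR adjusted p = 0.00779). The call was lost without WT library 1 without DHT (log2 change 0.58, the lowest of these fits, adjusted p = 0.0519, the highest), and in the fit of only the groups compared (0.68, adjusted p = 0.0524, against 3.48e-06 to 0.0524 over all alternatives). In HET organoids Clu was 772, 746 and 881 CPM with DHT and 886, 884 and 1113 CPM without. In KO organoids it was 759, 731 and 807 CPM with DHT and 836, 887 and 1056 CPM without. Both pairs were separate, though by little, at log2 changes of 0.26 (SE 0.122, adjusted p = 0.587) and 0.27 (SE 0.122, adjusted p = 0.659). The average change over genotype labels was 0.41 (SE 0.0702, adjusted p = 0.00213).

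The remaining 4 markers were not called by edgeR's main fit in any withdrawal comparison. Ly6a, the surface antigen Sca-1, was 949.6, 1099 and 1109 CPM in WT organoids with DHT and 936, 721 and 719 CPM without, at a log2 change of -0.41 (SE 0.174, edgeR adjusted p = 0.506). The WT groups were separate, by a margin that rested on 1 library of each. Prom1, a pentaspan membrane protein also known as CD133, was 253 to 272 CPM with DHT and 234 to 266 CPM without in WT organoids, and these ranges overlapped. Wfdc2, a secreted protease inhibitor-like protein, was 317 to 484 CPM with DHT and 274 to 443 CPM without, at a log2 change of -0.19 (SE 0.332). Ppp1r1b, an intracellular inhibitor of protein phosphatase 1 best known from dopamine signalling, was 23.6 to 42.7 CPM with DHT and 32.0 to 41.7 CPM without. The standard errors of Wfdc2 (0.332) and Ppp1r1b (0.233) were the widest of the 8. In HET organoids without DHT, Wfdc2 was 245, 406 and 631 CPM in libraries with 9.43%, 4.54% and 2.42% mitochondrial reads. In KO organoids without DHT it was 217, 405 and 588 CPM in libraries with 10.01%, 4.17% and 2.61%. In each of these groups Ppp1r1b was also lowest where mitochondrial reads were most frequent, at 23.3 CPM in HET and 21.02 CPM in KO.

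**Figure D2:**
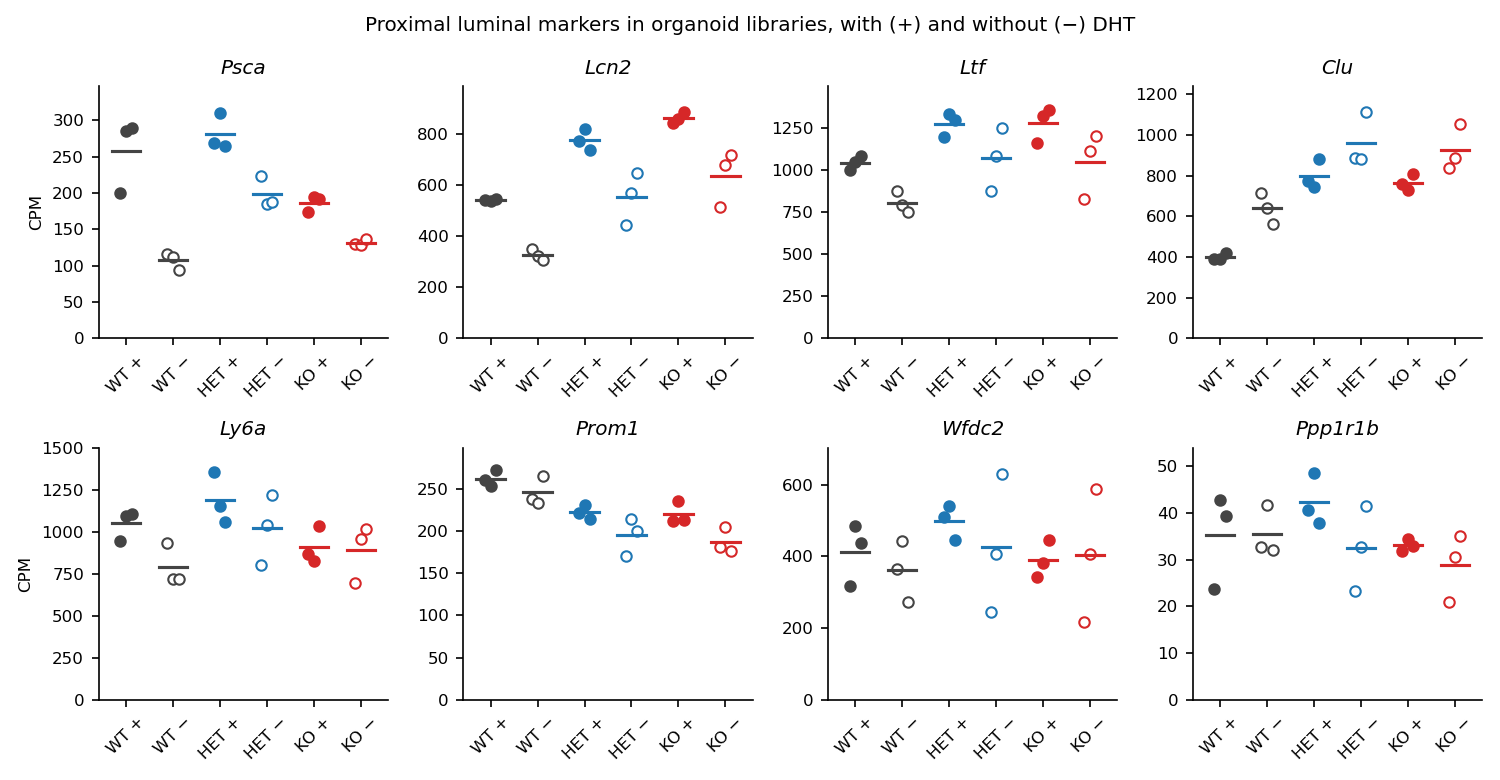
CPM of each marker in the 18 organoid libraries (points, 1 panel per gene, linear axis from 0) by genotype label with (+, filled) and without (−, open) DHT, with the group mean as a line. Psca and Lcn2 lie lower and Clu lies higher without DHT in every genotype, and Wfdc2 spreads from 217 to 631 CPM among HET and KO libraries without DHT.

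**Figure D3:**
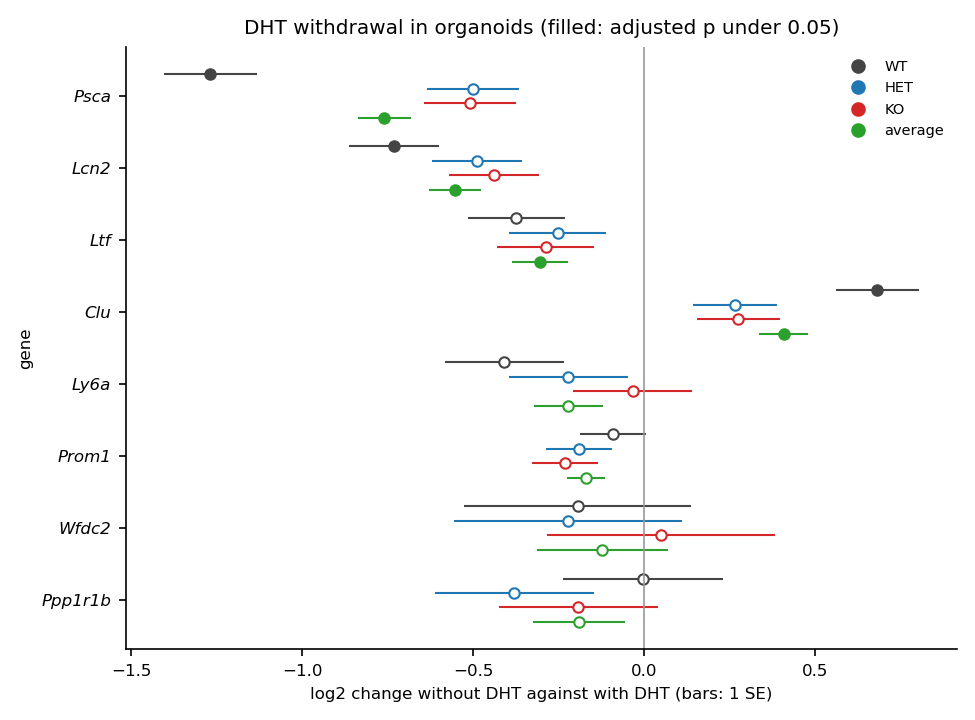
Log2 change without DHT against with DHT (horizontal axis, bars 1 SE) for the 8 markers in WT, HET and KO organoids and averaged over them, filled where the adjusted p was under 0.05. In WT organoids Psca at -1.27, Lcn2 at -0.73 and Clu at 0.68 are filled, and no HET or KO value is.

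Of 14 other proximal luminal genes, 2 fell and none rose on withdrawal in each of the 3 genotypes. They were Aldh1a1, a retinaldehyde dehydrogenase (log2 changes -2.20, -2.26 and -2.07 in WT, HET and KO), and Cldn10, a tight-junction claudin (-1.61, -1.39 and -1.31). The median log2 change of this list in WT was -0.15. Pigr was called in addition on average over genotypes, where it fell by 0.28 (edgeR adjusted p = 0.00235). The keratins Krt4, Krt7 and Krt19 were not called in any withdrawal or genotype comparison of organoids. Among 14 tested Ly6 family genes, Ly6c1 fell beside Psca in WT organoids, by 0.78 (adjusted p = 0.0414). Among the 14 genes of the WAP family that includes Wfdc2, 7 were tested and none was called within a genotype, and 3 fell on average, led by Wfdc12 (-0.88, adjusted p = 0.00217). Of 17 tested acute phase and innate response genes, and of 12 interferon response genes, none was called within a genotype. On average over genotypes 4 acute phase genes fell, Steap4 (-0.35), Nfkbiz (-0.23), Birc3 (-0.22) and Il1a (-0.42), and 1 rose, Cxcl5 (0.65), while 1 interferon gene fell, Rsad2 (-0.56). Basal genes were not called within a genotype either, with a median of 0.14 in WT. Of 10 tested distal and secretory genes, 4 fell in WT, 3 in HET, 3 in KO and 5 on average, and none rose. Averaged, Spink5 changed by -2.05.

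The genotype comparisons ask whether loss of Brca1 shifts these markers. In both media Clu and Lcn2 were higher in HET and in KO than in WT organoids, and Psca was lower in KO than in HET. With DHT, 2 of the 8 were called between HET and WT (7.51% of all genes), 2 between KO and WT (4.11%) and 1 between KO and HET (3.54%). Without DHT the counts were 4 for HET against WT (7.81%), 3 for KO against WT (4.8%) and 1 for KO against HET (2.92%). The HET and KO comparisons share the WT libraries, so they are not independent of each other.

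With DHT, Clu had the largest differences from WT of the 8 markers, in both HET and KO. Its values, given above, ran from 388 to 417 CPM in WT, 746 to 881 CPM in HET and 731 to 807 CPM in KO libraries. WT was below every library of the other labels, and HET and KO overlapped. The log2 differences from WT were 1.01 for HET (SE 0.123, edgeR adjusted p = 8.18e-05) and 0.94 for KO (SE 0.123, adjusted p = 0.000161). Without DHT, where WT itself was higher, they were 0.59 (SE 0.122, adjusted p = 0.00586) and 0.54 (SE 0.122, adjusted p = 0.0173). The KO call without DHT was lost in 3 of 6 fits that left out 1 library, at adjusted p-values up to 0.0879, namely without WT 2, WT 3 or KO 3. Both calls without DHT were lost in fits of only the groups compared, at adjusted p-values of 0.113 for HET and 0.215 for KO, the highest over all alternatives (lowest 2.13e-05 and 0.000223). KO and HET did not differ by test, with a difference of -0.06 (SE 0.121) with DHT and -0.05 (SE 0.121) without.

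Lcn2 was ordered by label with DHT, at 539.6 to 545 CPM in WT, 738 to 820.5 CPM in HET and 846 to 887 CPM in KO libraries, with no overlap between neighbours. The difference from WT was 0.52 for HET (SE 0.132, edgeR adjusted p = 0.0241) and 0.67 for KO (SE 0.133, adjusted p = 0.00633). The HET call was lost whichever of the 6 libraries was left out (adjusted p 0.0526 to 0.101), while the difference stayed between 0.47 and 0.55. KO exceeded HET by 0.15 (SE 0.132, adjusted p = 0.691), which was not called. Without DHT the differences from WT were 0.76 for HET (SE 0.133, adjusted p = 0.0016) and 0.96 for KO (SE 0.133, adjusted p = 0.000306), and both calls held in all 6 fits without 1 library. In the fit of only the groups compared the HET call was lost (0.77, adjusted p = 0.0608, against 2.35e-08 to 0.0608 over all alternatives). HET and KO overlapped there, at 444 to 649 and 515 to 719 CPM, above 308 to 349 CPM in WT. Ltf, the other iron-related gene, was higher than in WT by 0.29 in both labels with DHT and by 0.41 and 0.38 without, and none of the 4 differences was called (adjusted p 0.103 to 0.396). Without the HET library 1 or the KO library 1 without DHT, the 9.43% and 10.01% mitochondrial libraries, Ltf was called at 0.53 in each (adjusted p = 0.0333 and 0.0354). Over all alternatives tried without DHT, its adjusted p ran from 7.81e-05 to 0.307 for HET and from 0.000209 to 0.507 for KO. With DHT, the fit with the mitochondrial share as a covariate called Ltf at 0.34 for HET and 0.40 for KO (edgeR adjusted p = 0.00248 and 0.00146). Over all alternatives with DHT, its adjusted p ran from 0.00248 to 0.554 for HET and from 0.00146 to 0.756 for KO.

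Psca separated KO from HET organoids in both media, with KO the lower. With DHT, KO libraries (174 to 194 CPM) lay below all HET libraries (264 to 311 CPM) and all WT libraries (199 to 289 CPM). KO was lower than HET by a log2 difference of -0.59 (SE 0.135, edgeR adjusted p = 0.0216) and lower than WT by -0.47 (SE 0.134, adjusted p = 0.0668). The difference from WT was called without WT library 1, the smallest (-0.62, adjusted p = 0.00553, against a range of 0.00231 to 0.294 over the alternatives). The difference from HET was lost in 5 of 6 fits that left out 1 library (adjusted p 0.0469 to 0.128), all but that without HET 3. Without DHT, HET libraries (184 to 224 CPM) lay above all KO libraries (128 to 136 CPM), and these above all WT libraries (93.9 to 116 CPM). HET exceeded WT by 0.89 (SE 0.135, adjusted p = 0.000504), in every fit without 1 library. KO was lower than HET by -0.60 (SE 0.135, adjusted p = 0.024), which was called in only 1 of 6 such fits, that without HET 3 (adjusted p 0.0367 to 0.101). KO exceeded WT by 0.29 (SE 0.134, adjusted p = 0.328), so the sign of the KO difference from WT was negative with DHT and positive without, and neither value was called.

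Prom1 was the only marker lower in both labels than in WT by test, and only without DHT. There it was 234 to 266 CPM in WT, 170.4 to 215 CPM in HET and 177 to 204.98 CPM in KO libraries, and WT was above all of them. The differences were -0.34 (SE 0.0961, edgeR adjusted p = 0.0434) and -0.39 (SE 0.0962, adjusted p = 0.0277). Each call was lost in 5 of 6 fits that left out 1 library, all but those without HET 2 and without KO 2, with adjusted p-values up to 0.21 for HET and 0.161 for KO. With DHT the differences were -0.24 (SE 0.0961) and -0.25 (SE 0.0961) and were not called. Ly6a, Wfdc2 and Ppp1r1b were not called between any labels in organoids in the main fit. There, Ly6a in KO libraries with DHT (829 to 1036 CPM) lay below HET (1063 to 1360 CPM), at -0.39 (SE 0.174, edgeR adjusted p = 0.316). With the mitochondrial share as a covariate that difference was called (-0.33, adjusted p = 0.0406), as was Ly6a for HET against WT without DHT (0.50, 0.00227). The covariate fit also called Wfdc2 for HET against WT with DHT (0.42, 0.0271) and without (0.50, 0.0125). For KO against WT it called Wfdc2 without DHT (0.43, 0.0385). Over all alternatives these adjusted p-values ran up to 0.694 for Ly6a and 0.995 for Wfdc2.

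**Figure D4:**
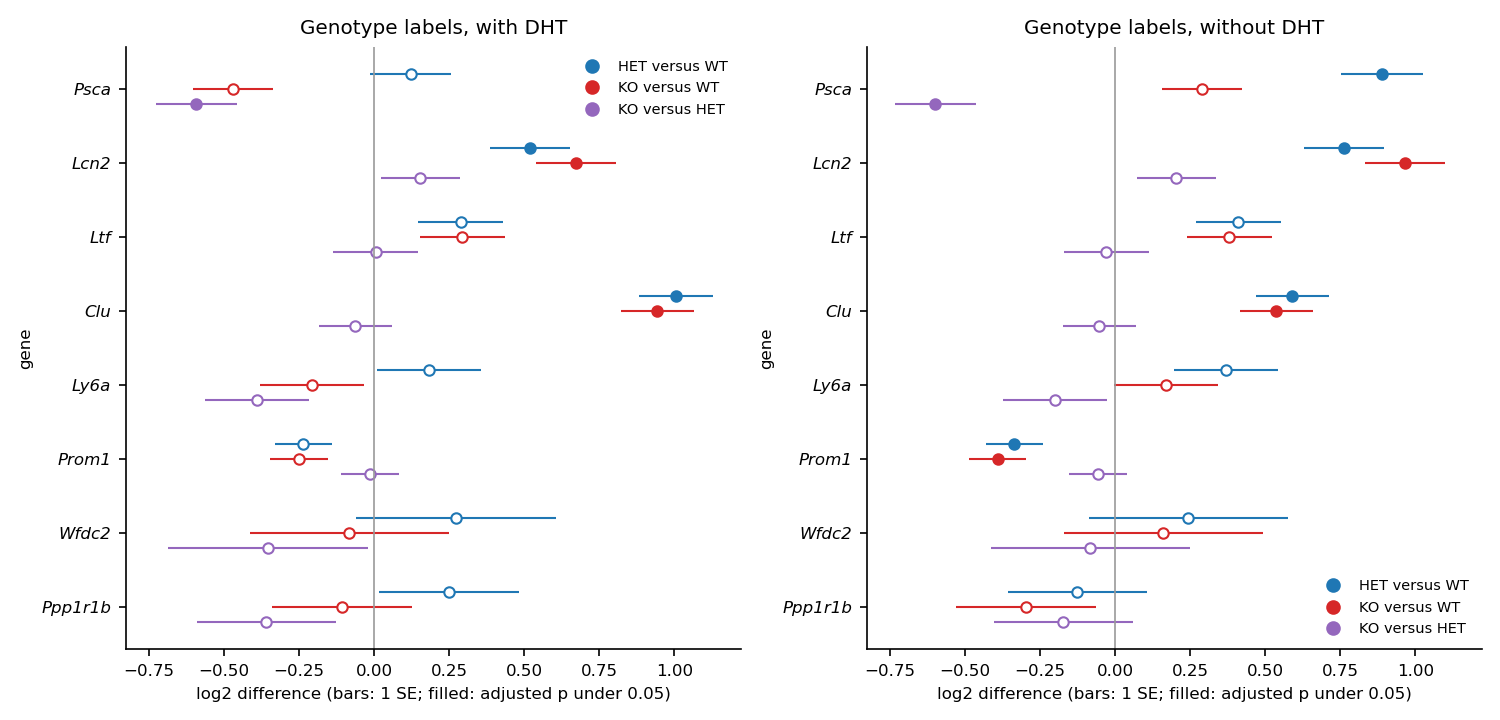
Log2 differences between genotype labels in organoids with DHT (left) and without (right) for the 8 markers, with bars of 1 SE and filled points where the adjusted p was under 0.05. Clu and Lcn2 are filled for HET and KO against WT in both panels, Psca for KO against HET in both, and Prom1 for HET and KO against WT only without DHT.

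Other genes of the compartment moved in both directions between labels. Of 14 other proximal genes, 1 was higher and 1 lower in HET than in WT organoids in each medium. Pigr was higher by 0.89 with DHT and 0.86 without, and Aqp3, a water and glycerol channel, was lower by -0.93 and -0.84. In KO, Aqp3 was also lower than in WT (-1.17 with DHT and -1.05 without), and Pigr was higher with DHT (0.33). In the Ly6 family, Ly6k exceeded WT in HET by 1.83 with DHT and 1.70 without. Without DHT, 4 of 14 tested family members were higher in HET than in WT, Ly6k, Psca, Ly6c1 (0.88) and Ly6g (1.63). Ly6g was near the floor, at no more than 1.16 CPM in any organoid library. Of the 17 acute phase and innate response genes, complement factor Cfb was the only one higher in HET than in WT with DHT, by 2.07 (edgeR adjusted p = 0.000305), and in KO it was higher without DHT by 1.30 (adjusted p = 0.0111).

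Markers of other cells differed between labels beside these genes. Of 10 basal genes, 3 were lower in HET than in WT with DHT (Dsg3 -1.23, Col17a1 -0.54 and Krt14 -0.74) and none higher, and their sum was 4924 to 5240 CPM in HET, 5720 to 6139 CPM in KO and 5455 to 6670 CPM in WT. Dsg3 was lower in KO too, by -0.75. Stromal markers summed to 9.97 to 13.9 CPM in HET, 32.7 to 42.1 CPM in KO and 23.2 to 28.8 CPM in WT with DHT. Of these 8 markers, 6 were under 1 CPM in every organoid library, and the highest single value was 37.9 CPM (Dcn). Leukocyte and macrophage markers summed to 67.5 to 76.3, 44.8 to 50.2 and 49.6 to 61.6 CPM, mostly Cd68, and 7 of the 8 were under 1 CPM in every organoid library. The part of these cells in the marker differences was not tested.

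In anterior lobe tissue none of the 8 markers was called between genotype labels, and neither was any of 16753 genes (0% in each of the 3 comparisons). At an unadjusted p under 0.05 there was 1 marker between HET and WT, Ltf, and none between KO and WT or KO and HET, and DESeq2 called none. Psca was 913 and 17.7 CPM in WT, 509 and 893 CPM in HET and 423 and 924 CPM in KO. Ltf was 169 and 135 CPM in WT, 824 and 194 CPM in HET and 512 and 369.8 CPM in KO, so both WT libraries were below the 4 others, at a log2 difference of 1.74 for HET (SE 0.696, edgeR adjusted p = 0.997) and 1.54 for KO (SE 0.691, adjusted p = 1). Clu was 18639 and 5000 CPM in WT, 13840.1 and 21879 CPM in HET, and 29086 and 31152 CPM in KO. Both KO libraries were the highest of the 6. The KO difference from WT was 1.35 (SE 0.914, adjusted p = 1), and 0.70 (SE 0.421) without WT 2.

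All 8 markers had positive differences from WT in both HET and KO tissue, with medians of 1.06 and 0.85. Without WT 2, which was low for 6 of them, HET minus WT was -0.36 for Psca, -0.35 for Ly6a and -0.04 for Clu, and KO minus WT was -0.43 for Psca, -0.10 for Ly6a and -0.06 for Wfdc2. The sign thus turned for those genes when that library was left out. For HET minus WT, Prom1 went from 2.15 to 3.71, Lcn2 from 0.48 to 1.07, Wfdc2 from 1.89 to 0.91, Ltf from 1.74 to 1.61 and Ppp1r1b from 1.53 to 0.66. For KO minus WT, Prom1 went from 0.70 to 2.26, Lcn2 from 0.13 to 0.71, Ltf from 1.54 to 1.39 and Ppp1r1b from 0.98 to 0.09. All adjusted p-values without WT 2 were 1. Without WT 1 in its place, Wfdc2 and Ppp1r1b were called between HET and WT at 10.04 and 4.34 (adjusted p = 0.048 for both). These values compare HET tissue with WT 2 alone, whose spread was assumed to equal that of the other groups. Prom1 in tissue was 61.6 and 299 CPM in WT, 1355 and 239 CPM in HET, and 300.4 and 285 CPM in KO. HET 1, the library with 4.24% seminal vesicle transcripts, was the highest of the 6 for Prom1, Lcn2 (317 CPM), Ltf and Wfdc2.

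Tissue and organoids with DHT differed in 4 of the 8 markers, where 75.4% of 17626 genes were called. Clu and Ppp1r1b were higher in tissue, and Lcn2 and Ltf were lower. Clu was 3466 to 25443 TPM in tissue and 366 to 865 TPM in organoids, and the ranges were far apart. Its log2 difference was 4.65 (SE 0.25, edgeR adjusted p = 9.97e-09). Ppp1r1b was 366 to 699 TPM in tissue without WT 2, 23.3 TPM in WT 2 and 20.6 to 43.5 TPM in organoids, and its difference was 3.04 (SE 0.383, adjusted p = 1.43e-05). Lcn2 was 188 to 681 TPM in tissue and 887 to 1655 TPM in organoids, and its difference was -2.25 (SE 0.233, adjusted p = 2.61e-06). Ltf was 94.6 to 792 TPM in tissue and 806 to 1156 TPM in organoids, with a difference of -2.11 (SE 0.266, adjusted p = 1.42e-05). These 4 calls held in all 15 fits that left out 1 library. Without WT 2 the differences were 4.86 for Clu, 3.33 for Ppp1r1b, -2.44 for Lcn2 and -2.06 for Ltf.

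For Psca, Ly6a and Wfdc2 the result turned on which WT tissue library was in the fit. With all 6 tissue libraries, Psca exceeded organoids by 1.09 (SE 0.519, edgeR adjusted p = 0.0726) and Ly6a by 0.35 (SE 0.373, adjusted p = 0.413). Without WT 2 both were called, Psca at 1.41 (SE 0.178, adjusted p = 1.88e-05) and Ly6a at 0.64 (SE 0.0967, adjusted p = 8.56e-05). Without WT 1 both were called in the opposite direction, at -0.49 (adjusted p = 0.0357) and -0.62 (adjusted p = 0.000211). Wfdc2 differed by -0.07 (SE 0.681) with all libraries and by 0.26 (adjusted p = 0.0706) without WT 2, and was called at -2.80 without WT 1. Prom1 was not called in any fit, at 0.34 (SE 0.354, adjusted p = 0.401) with all libraries and -0.18 (SE 0.307, adjusted p = 0.613) without WT 2. In TPM, Psca was 866 to 1780 in the 5 tissue libraries other than WT 2 and 351 to 561 in organoids with DHT, which did not overlap, and 27.4 in WT 2.

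**Figure D5:**
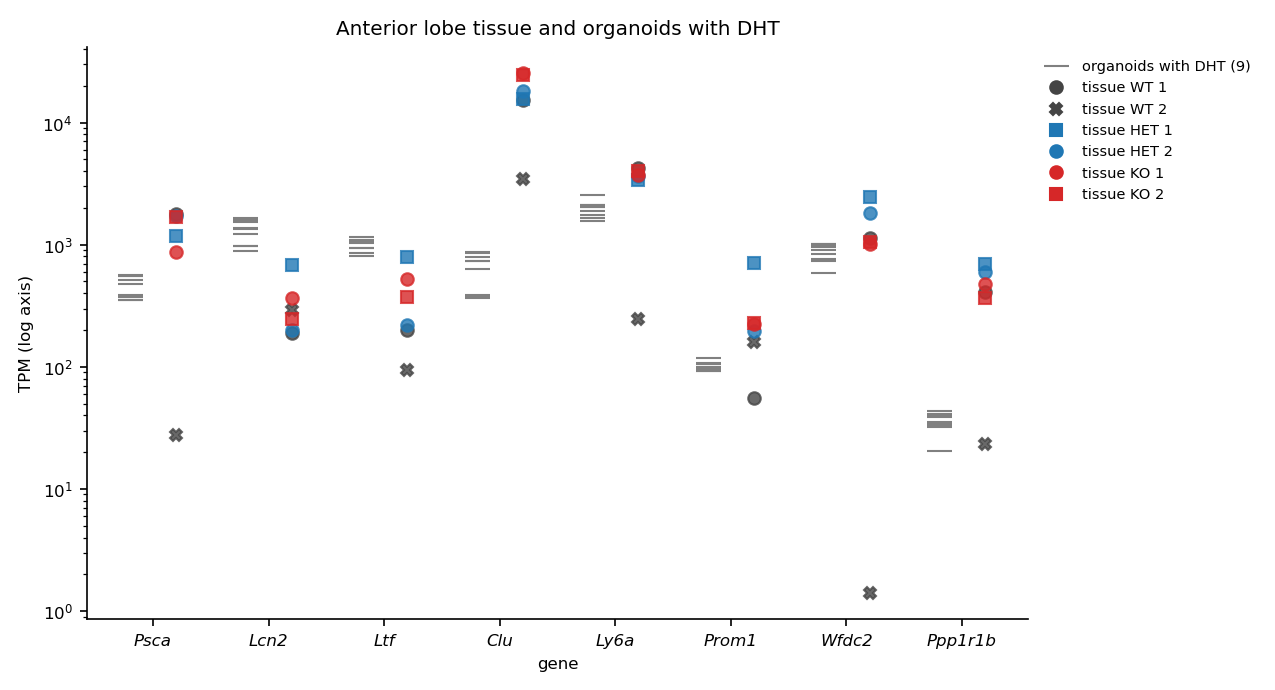
TPM (log axis) of the 8 markers in the 9 organoid libraries with DHT (dashes) and in each of the 6 anterior lobe tissue libraries (symbols, WT 2 as a cross). Clu lies higher and Lcn2 and Ltf lie lower in tissue than in organoids, and WT 2 lies far below the other tissue libraries for Psca, Clu, Ly6a, Wfdc2 and Ppp1r1b.

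Other proximal genes went both ways: of 14, 4 were higher and 6 lower in tissue than in organoids, where 75.4% of all genes were called. Pigr (4.25) and Lrrc26 (2.92) were among the first. Aqp3 (-4.17) and Slpi (-3.67), a secreted protease inhibitor, were among the second. Both were low in tissue, with at most 2.52 CPM for Aqp3 and 7.64 CPM for Slpi. All 9 called basal genes of 10 were lower in tissue, with a list median of -3.45. Of 20 acute phase and innate response genes 11 were lower in tissue and 6 higher, with a median of -1.70, against 0.19 over all genes. The distal and secretory list had 10 of 14 higher, at a median of 2.53. Neutrophil markers summed to 3.05 to 11.0 CPM in tissue. Tissue also holds stromal and endothelial cells, whose markers summed to 651 to 4082 CPM and 70.1 to 85.8 CPM there and to at most 42.1 CPM and 13.1 CPM in organoids. The part of cell makeup in these differences was not tested.

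Across all 9 groups, mean TPM placed the markers in different orders. Lcn2 was highest in KO organoids with DHT (1598 TPM), then in HET with DHT (1315 TPM), KO without (1165 TPM), HET without (987 TPM), WT with (946 TPM) and WT without DHT (614 TPM), and lowest in the 3 tissue groups (240.2 to 441 TPM). Of these neighbours, KO and HET with DHT did not overlap, nor did WT with and without DHT, and the others overlapped. Clu was highest in KO tissue (25010.2 TPM) and lowest in WT organoids with DHT (376 TPM), and its 3 tissue groups did not overlap in TPM, though WT 1 (15437 TPM) and HET 1 (15440.3 TPM) nearly met and WT and HET overlapped in CPM. Psca, Ly6a, Wfdc2 and Ppp1r1b had their highest means in HET or KO tissue, but the WT tissue means include the low WT 2. WT 1 alone was 1780 TPM for Psca and 4248 TPM for Ly6a, above each HET and KO tissue library. For Wfdc2 (1129 TPM) and Ppp1r1b (410 TPM), WT 1 was below both HET tissue libraries but not below both KO libraries. Ltf ran from 1101 TPM in KO organoids with DHT to 147 TPM in WT tissue.

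The transcripts behind some genes differed between materials. Psca is annotated with 1 transcript, so its level rests on that alone. For Prom1, the authors' estimates put a median of 60.8% of TPM on Prom1-203 in organoids and 26.4% in tissue, while the short Prom1-211 (1089 bases) had 10.1% in organoids and 65.2% in tissue. Tissue HET 1 was an exception at 11.7% for Prom1-211. Clu was mostly Clu-201 in tissue (median 99.7%, lowest 84.6%) and 76.4% in organoids, where the short Clu-205, annotated for nonsense-mediated decay, took 19.6%. Ppp1r1b-202, a retained-intron transcript, had a median of 46.7% in organoids and 62.8% in tissue. These are assignments of reads among overlapping transcripts and were not tested.

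By the correlation of log2 CPM over the 18 organoid libraries, among 9962 candidate genes, the nearest genes differed from marker to marker. Lcn2 and Ltf were near each other (Pearson r 0.931), with Plac8 nearest to Lcn2 (0.966) and Acot7 to Ltf (0.935). Clu was nearest to Igfbp4 (0.977), Scara3 (0.947) and Nid1 (0.941), and Psca to Rrm2 (0.924), Isg20 (0.91) and Kcnf1 (0.896). Ly6a was nearest to Psmb7 (0.932), Ly6c1 (0.925) and Psmd13 (0.92), and Prom1 to Etv3 (0.93), Kdm5b (0.887) and Sqle (0.886). Wfdc2 was nearest to Ppp1ca (0.976), Cbr2 (0.974) and Ndufv1 (0.974), and Ppp1r1b to Rab25 (0.959), Aldoa (0.956) and Cuta (0.955). These values are descriptions over libraries that share groups, depth and mitochondrial share, and no p is given.

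By position (GRCm38), Psca at chr15:74714839-74717069 on the plus strand and Ly6a at chr15:74994877-74998031 on the minus strand lie 0.28 Mb apart within the Ly6 gene cluster. The other markers lie at chr2:32384633-32388252 (Lcn2, minus), chr2:164562413-164568510 (Wfdc2, plus), chr14:65968483-65981547 (Clu, plus), chr5:43993620-44102032 (Prom1, minus), chr9:111019271-111042767 (Ltf, plus) and chr11:98348404-98357796 (Ppp1r1b, plus). Ppp1r1b lies 3.13 Mb from Brca1 on the same chromosome and was not called between labels. Of the 1259 distinct 31-base words in Ly6a transcripts, 402 (31.9%) also occur in other genes of the files, 276 of them in Ly6c1, so the split of reads between Ly6a and Ly6c1 is uncertain. For Prom1 this share was 2.17%, and for the other 6 markers no word was shared.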

How the data were processed

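RNA from 18 organoid and 6 anterior lobe tissue libraries was analysed. The deposited files give, per the file headers, the estimated count of reads, TPM, length and effective length of 116945 transcripts per library. Estimated counts and TPM were made by the authors with a Salmon release given as 0.13.1 in the submitters' processing notes. The build named there is hg38, but the identifiers are mouse Ensembl identifiers, so the values were read as mouse. The annotation behind the index, strandedness and trimming are not given in the sources used here, and without strand, reads of antisense genes cannot be told apart.

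Transcripts were joined to genes with the GENCODE mouse release M21 map by unversioned identifier. In each library 922 had no gene, with 0.2275% to 0.3266% of reads, and were left out. Estimated counts were summed per gene and rounded, and TPM were summed. CPM were computed here from edgeR's TMM-normalized library sizes. Genes that passed filterByExpr were tested with the quasi-likelihood F-test of edgeR 4.0.16 in R 4.3.3, with Benjamini-Hochberg adjustment over all genes tested and a threshold of 0.05. The organoid fit had 18 libraries, 15427 genes and 12 residual degrees of freedom (biological coefficient of variation 0.214), and the tissue fit 6 libraries, 16753 genes and 3 (0.502). The fit of tissue with organoids with DHT had 15 libraries, 17626 genes and 9 (0.334). SE of edgeR values were computed as the absolute log2 change divided by the square root of its F statistic. The test was also run on counts simulated with known changes. Their spread was taken from the organoid fit, so this does not check that spread. In all, 17 comparisons were made, giving 136 tests of the 8 markers, 24 of them called.

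Replicate numbers were treated as possible pairs only for KO against HET without DHT, where the deviations of all 3 same-numbered pairs correlated at 0.231 to 0.691. The fit without the block was kept as the main one there. The 8 markers and the 14 other gene lists were chosen with earlier results of these data known. The text names the markers in every comparison, from each list up to 4 called genes with the lowest p (or the 2 with the highest CPM), the 3 genes nearest each marker by correlation (mean of at least 5 CPM, prior count 2), and Brca1 and Fkbp5. Genes that show how tissue WT 2 stood apart, the keratins and Cxcl5 were named after their values were seen. One list symbol (Expi) was not matched. Alternatives were DESeq2 1.42.0, its size factors, no filter, a filter of over 1 CPM, fits of only the groups compared, the replicate number as a block, the mitochondrial share as a covariate, leaving out 3 organoid libraries together, and leaving out each library in turn.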

Additional observations from a re-analysis of the deposited data

How the results depend on the processing

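Of 2088 marker values recomputed under alternatives, 1996 kept their side of the threshold without a called value turning, 54 lost the call, 36 gained one and 2 reversed. Of the 1996, 107 changed sign while called in neither fit. The 2 reversals were in tissue against organoids without tissue WT 1, Psca at -0.49 and Ly6a at -0.62, while without WT 2 they were 1.41 and 0.64. DESeq2 called 2 markers on withdrawal in HET and 2 in KO organoids (main count 0). With the mitochondrial share as a covariate the counts were 1 and 2 there, 4 for HET against WT and 4 for KO against WT with DHT (main 2 and 2), 3 for KO against HET with DHT (main 1), and 7, 5 and 2 for HET against WT, KO against WT and KO against HET without DHT (main 4, 3 and 1). On withdrawal the covariate fit also called more of all genes than the main fit, as given below. Its all-gene counts between labels are not given here, so these marker counts have no background. Without the 3 organoid libraries with the fewest reads or most mitochondrial reads, 1 marker (Psca) was called on withdrawal in HET. In fits of only the groups compared, counts without DHT were 1, 1 and 0: Lcn2, Clu and Prom1 were lost for HET against WT, Clu and Prom1 for KO against WT, and Psca for KO against HET. Clu on WT withdrawal was lost there too. The causes were not tested.

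Leaving out 1 library at a time gave 2 to 3 called markers on withdrawal in WT organoids, 3 to 4 on average, 1 to 1 for HET against WT, 2 to 3 for KO against WT and 0 to 1 for KO against HET with DHT, 3 to 4, 1 to 3 and 0 to 1 for the same comparisons without DHT, 0 to 2 for HET against WT tissue and 4 to 7 for tissue against organoids. For all genes, DESeq2 and the covariate fit called more than the main fit: on WT withdrawal 396 and 719 against 200, in HET 295 and 293 against 109, and in KO 281 and 465 against 86. Ppp1r1b rested on 210 to 2599 reads per organoid library.

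The labels give replicate numbers without saying that they mark a shared animal or day. Among the organoid groups compared, deviations of same-numbered libraries correlated above 0.1 in every pair only between HET and KO without DHT (0.231 to 0.691). The mitochondrial share followed the number there too, at 9.43%, 4.54% and 2.42% in HET and 10.01%, 4.17% and 2.61% in KO. Libraries with unlike numbers also correlated, at 0.48 for KO 3 and WT 2 without DHT. Whether the numbers mark a shared origin was not tested. In tissue, with 2 libraries per group, the 2 pairs between any 2 groups share 1 correlation. It was 0.408 for HET and KO, 0.109 for KO and WT and -0.209 for HET and WT, and numbers were not taken as pairing there. With the replicate number as a block in organoids without DHT, Psca was lower in KO than in HET by -0.60 (edgeR adjusted p = 0.03). The block changed no count of called markers in any comparison. The block moved the count of all genes on HET withdrawal from 109 to 167.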
